A study of Mus musculus with 8 samples.

Results

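The iCLIP signal of SRSF3 was described over 4 imprinted genes of the distal part of mouse chromosome 7, H19, Igf2, Kcnq1ot1 and Cdkn1c, which all lie on the minus strand. The members were taken by position in the mm9 genome: H19 from 149761300 to 149764200, Igf2 from 149836600 to 149852800, Kcnq1ot1 from 150398000 to 150482600 and Cdkn1c from 150644100 to 150647100. Of the 769652 positions listed in replicate 1 these 4 windows held 284, and of the 2093525 listed in replicate 2 they held 838. The series contains 8 samples: 3 hearts of adult SRSF3flox/flox;alphaMHC-CreERT2 mice and 3 hearts of adult alphaMHC-CreERT2 controls, all given 4-hydroxytamoxifen, and 2 replicates of SRSF3 iCLIP. Only the iCLIP replicates are used here. Both came from neonatal C57BL/6 cardiomyocytes taken at P0 or P1, transfected with 15 µg of modRNA for SRSF3-GFP, irradiated with 100 mJ at 254 nm 48 h later and precipitated through GFP, so the protein measured was a tagged SRSF3 supplied from outside. iCLIP crosslinks a protein to RNA in cells and maps the nucleotide at which reverse transcription ended beside the crosslink, and each mapped molecule is a cDNA. The cell preparation was not checked against cell type markers, since no gene annotation of mm9 is used here.

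Imprinted genes are expressed mainly from the chromosome of 1 parent. H19 is a spliced and polyadenylated noncoding RNA made from the maternal chromosome, abundant in fetal muscle and heart, and the host of the microRNA miR-675. Igf2, its neighbour, is made from the paternal chromosome and encodes the growth factor IGF2. Kcnq1ot1 is a long unspliced nuclear RNA, made from the paternal chromosome in antisense direction to the potassium channel gene Kcnq1, and is known for silencing neighbouring genes on that chromosome. Cdkn1c, which encodes the cell cycle inhibitor p57, is one of the genes it silences. SRSF3, an SR protein, has known roles in pre-mRNA splicing and in the export of mRNA from the nucleus. The tracks do not separate the parental alleles.

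The reference transcripts show the contrast in build among the 4 RNAs (GENCODE M21, on GRCm38; lengths and letters only, no position was carried over to mm9). The longest H19 transcript has 5 exons and 2286 nt, that of Igf2 4 exons and 4722 nt, that of Cdkn1c 4 exons and 1901 nt, and that of Kcnq1ot1 a single exon of 93092 nt. The pentamer reported for SRSF3 has C at the second and the last place and A or U at each other place, so it reads ACAAC or ACAUC or ACUAC or ACUUC or UCAAC or UCAUC or UCUAC or UCUUC. It was searched on the RNA strand, counting overlapping matches. H19 held 24 matches (10.5 per kb), Igf2 41 (8.68 per kb), Kcnq1ot1 766 (8.23 per kb) and Cdkn1c 14 (7.36 per kb). The median over the longest transcripts of 40427 genes was 8.49 per kb, and 27.5%, 47.5%, 53.5% and 66.0% of these genes held at least as many per kb as H19, Igf2, Kcnq1ot1 and Cdkn1c. By these letters the 4 RNAs were thus near the middle of all genes, with H19 the richest and Cdkn1c the poorest. The first 300 nt of the 2 noncoding RNAs are printed because the 5′ end carried the densest cDNAs of Kcnq1ot1, with H19 beside it as the spliced noncoding RNA of the domain. They are written as DNA, 5′ to 3′, with the pentamers in capitals, and lie on the minus strand of GRCm38 chromosome 7, from 143296250 to 143296549 for Kcnq1ot1 and from 142577844 to 142578143 for H19, in exon 1 of each.
Kcnq1ot1: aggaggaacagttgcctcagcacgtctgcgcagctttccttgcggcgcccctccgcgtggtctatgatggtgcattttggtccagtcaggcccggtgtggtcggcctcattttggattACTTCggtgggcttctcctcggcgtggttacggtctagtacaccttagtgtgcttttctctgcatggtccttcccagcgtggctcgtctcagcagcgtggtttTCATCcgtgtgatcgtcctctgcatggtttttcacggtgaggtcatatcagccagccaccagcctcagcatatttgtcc
H19: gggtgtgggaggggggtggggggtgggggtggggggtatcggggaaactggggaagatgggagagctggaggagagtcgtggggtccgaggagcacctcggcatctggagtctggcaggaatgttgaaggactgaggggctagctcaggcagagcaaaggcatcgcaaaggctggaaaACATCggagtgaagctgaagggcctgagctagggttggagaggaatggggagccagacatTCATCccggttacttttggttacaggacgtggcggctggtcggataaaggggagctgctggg
Each stretch holds 2 pentamers, a number that 62.7% of the genes reach in the first 300 nt of their longest transcript, while 84.7% hold at least 1. The letters cannot be lined up with single cDNA positions, which are in another build. The mature microRNAs cut from H19 are given by RefSeq on GRCm38.p6 (chromosome 7, minus strand, 142577112 to 142577133 for the 5p arm and 142577078 to 142577099 for the 3p arm), with the seed, bases 2 to 8, in capitals.
mmu-miR-675-5p: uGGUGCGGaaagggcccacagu
mmu-miR-675-3p: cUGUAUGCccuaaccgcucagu
They show the part of H19 that is processed into a small RNA, and the arms share no seed.

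Replicate 1 held 815414 cDNAs and replicate 2, the deeper library, 2253688. Counts were divided by these totals and given per 1000000 cDNAs (CPM) and per kb of window. No control immunoprecipitation is among the samples, so the opposite strand and the stretches between the genes serve as the background measured the same way. The opposite strand cannot serve for Kcnq1ot1. It had 4.03 and 4.62 CPM per kb there, against 3.77 and 4.17 on the strand of Kcnq1ot1, so only the stretches beside that window remain. cDNA counts follow RNA abundance as well as binding, and more RNA per cell, more cells with the RNA and more binding cannot be told apart in these tracks. Whether the replicates are separate cultures is not stated in the labels, so the spread between them may be technical only.

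Kcnq1ot1 held most of the cDNAs of the domain on this strand and was the most densely covered member per kb of genomic window. It had 260 of the 292 cDNAs of the 4 members in replicate 1 and 795 of the 861 in replicate 2, that is 89.0% and 92.3%. Much of this share goes with length, since the Kcnq1ot1 window spans 84.6 kb. The windows of Igf2, Cdkn1c and H19 span 16.2, 3.00 and 2.90 kb. The density of Kcnq1ot1 was 3.77 CPM per kb in replicate 1 (exact 95% Poisson interval 3.32 to 4.26) and 4.17 in replicate 2 (3.88 to 4.47), a mean of 3.97 ± 0.28 (SD, n = 2). The intervals of the replicates overlap, and both lie above every value of Igf2 described next. Genome-wide, tiles of the same length that held at least 1 cDNA had a median of 3 cDNAs in replicate 1 and 4 in replicate 2. Those with more cDNAs than Kcnq1ot1 made up 0.632% and 0.368%.

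Per kb of genomic window, H19 and Igf2 had the same mean density, and both means lay below that of Kcnq1ot1. H19 had 4 cDNAs in replicate 1 and 11 in replicate 2, or 1.69 CPM per kb (0.461 to 4.33) and 1.68 (0.840 to 3.01), a mean of 1.69 ± 0.0060 (SD, n = 2). The SD is smaller than counting error would give, so the intervals describe the precision better. Igf2 had 25 and 54 cDNAs, or 1.89 CPM per kb (1.22 to 2.79) and 1.48 (1.11 to 1.93), a mean of 1.69 ± 0.29 (SD, n = 2). Igf2 was 1.12 times as dense as H19 in replicate 1 (exact 95% interval 0.386 to 4.42) and 0.879 times in replicate 2 (0.454 to 1.86). The order of these genes per kb of window therefore differed between the replicates and was not resolved at this depth. Per kb of the longest reference transcript, described below, Igf2 stood above H19 by 1.43 on the log2 scale. As a genome-wide scale, among tiles of their own length with any cDNA, 18.3% held more cDNAs than H19 in replicate 1 and 11.1% in replicate 2, and 6.81% and 5.77% held more than Igf2.

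Cdkn1c was at the limit of detection. It had 3 cDNAs in replicate 1, 1.23 CPM per kb (0.253 to 3.58), and 1 in replicate 2, 0.148 (0.0037 to 0.824). A count of 0 would have allowed up to 3 cDNAs, or 1.23 and 0.444 CPM per kb, so neither replicate exceeded that limit. The plus strand of the same window held 1 cDNA in each replicate. Of tiles of its length with any cDNA, 25.5% in replicate 1 and 55.4% in replicate 2 held more, and 36.0% and 100% held at least as many. Since empty tiles were left out, a count of 1 is the lowest that such a tile can have, so the replicate 2 share gives no rank.

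The comparison of the classes rests on how length is counted. Per kb of genomic window, the unspliced noncoding Kcnq1ot1 was 1.99 times as dense as the coding Igf2 in replicate 1 (exact 95% interval 1.32 to 3.13) and 2.82 times in replicate 2 (2.14 to 3.79). Against the spliced noncoding H19 the ratio was 2.23 in replicate 1 (0.860 to 8.24), an interval that includes 1, and 2.48 in replicate 2 (1.38 to 4.98). Against Cdkn1c it was 3.07 (1.04 to 15.0) and 28.2 (5.05 to 1115), so without replicate 1 this ratio is 28.2 in place of the 5.78 from both means. When all cDNAs of a window were divided instead by the length of its longest reference transcript, Igf2 came first with 5.78 CPM per kb. It was followed by Kcnq1ot1 with 3.61, H19 with 2.14 and Cdkn1c with 1.08. Kcnq1ot1 then stood below Igf2, by -0.68 on the log2 scale, where the genomic window gave 1.24. That division assigns cDNAs from introns to the spliced length, so it is an upper value for a spliced RNA. The reference transcript of Kcnq1ot1, at 93.1 kb, is longer than its window of 84.6 kb, so part of that length had no cDNAs counted. When only the 100 nt bins that held a cDNA of either replicate were counted as length, the log2 ratio of Kcnq1ot1 was 0.57 to H19, 0.25 to Igf2 and -0.053 to Cdkn1c, so its direction against Cdkn1c turned. The place of Kcnq1ot1 against Igf2 thus depended on the length used, while its mean stood above that of H19 on these 3 scales. Against Cdkn1c its mean stood above per kb of window and per kb of reference transcript (1.73 on the log2 scale). With 3 and 1 cDNAs in Cdkn1c, the filled bins cannot rank that gene, since a bin filled by 1 cDNA sets its own length.

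**Figure D1:**
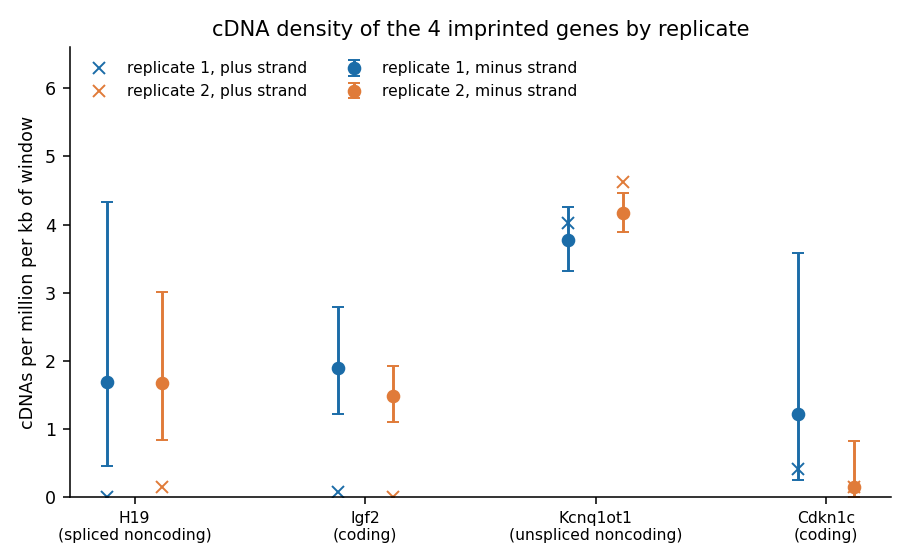
cDNA density, as CPM per kb of genomic window, of the 4 genes in each replicate: circles with exact 95% Poisson intervals are the minus strand, which carries the genes, and crosses are the plus strand of the same windows. Kcnq1ot1 lies at 3.77 and 4.17 with its plus strand at 4.03 and 4.62, and in the other windows the plus strand is at most 0.409.

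H19, Igf2 and Kcnq1ot1 stood out from the DNA between them. In the 72.4 kb between H19 and Igf2 the minus strand held 0 cDNAs in replicate 1 and 3 in replicate 2, in the 545 kb between Igf2 and Kcnq1ot1 it held 13 and 53, and in the 161 kb between Kcnq1ot1 and Cdkn1c 3 and 8. These 3 stretches had at most 0.0431 CPM per kb, and H19, Igf2 and Kcnq1ot1 lay above that level in both replicates. In the 50 kb beyond Cdkn1c the minus strand was denser, with 7 and 13 cDNAs or 0.172 and 0.115 CPM per kb. That flank was uneven, since it runs into a dense bin at 930 to 940 kb from the low-coordinate end of the H19 window (12.3 and 7.99 CPM). The 10 kb bins from 890 to 930 kb had at most 2.45 CPM in replicate 1 and 0.444 in replicate 2. The mean of the flank is thus no even background for Cdkn1c, which had 0.148 CPM per kb from a single cDNA in replicate 2. In that replicate the 10 kb bin with Cdkn1c had 0.444 CPM too, so it did not stand out from the bins up to 930 kb.

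**Figure D2:**
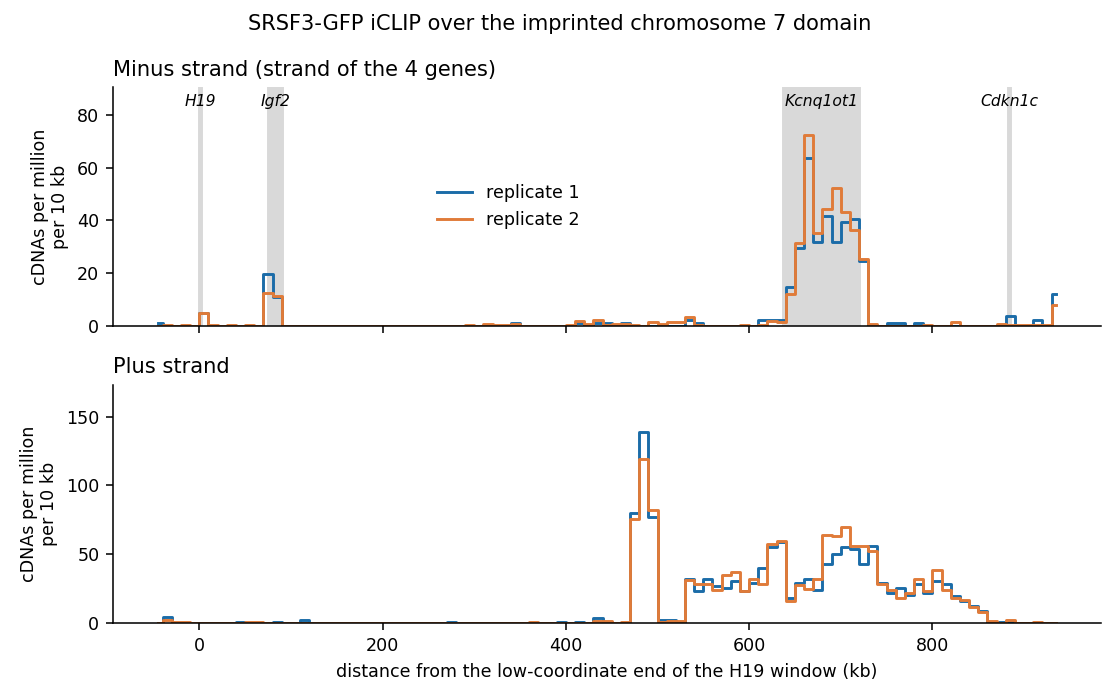
CPM in 10 kb bins over the domain in both replicates, minus strand above and plus strand below, against the distance in kb from the low-coordinate end of the H19 window; shaded bands are the 4 windows. On the minus strand the highest bins stand at Kcnq1ot1 and Igf2, with 4.91 and 4.88 at H19 and a bin outside the bands at 930 to 940 kb with 12.3 and 7.99, and the plus strand carries signal through and beyond the Kcnq1ot1 band.

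H19 and Igf2 were covered on their own strand, whereas the Kcnq1ot1 window was covered almost equally on both. Of the cDNAs of the Igf2 window, 25 of 26 in replicate 1 and 54 of 54 in replicate 2 were on the minus strand (exact 95% binomial intervals 80.4% to 99.9% and 93.4% to 100%). For H19 it was 4 of 4 and 11 of 12. In the Kcnq1ot1 window the minus strand held 48.3% of the cDNAs in replicate 1 (44.0% to 52.6%) and 47.4% in replicate 2 (45.0% to 49.9%). Its plus strand, the strand of Kcnq1, inside which Kcnq1ot1 lies in the GRCm38 annotation, held 278 and 881 cDNAs. Such balance was uncommon: of tiles of this length with at least 50 cDNAs over both strands, 59 of 4851 in replicate 1 (1.22%) and 145 of 9176 in replicate 2 (1.58%) were at least as even.

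Along the window the strands were covered unevenly against each other. Over 43 bins of 2 kb in the same library the strands were weakly related, with r = 0.15 and rho = 0.19 for replicate 1 and r = 0.19 and rho = 0.23 for the deeper replicate. These values describe neighbouring bins that share a library and its depth. The minus strand was higher in 19 bins of replicate 1 and 16 of replicate 2, and the plus strand in 19 and 25.

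Beyond the window the strands parted. In the 10 kb beyond its 5′ end the minus strand held 0 cDNAs in both replicates, and also 0 in the merged track, against 49 and 128 in the first 10 kb inside. The plus strand went on there with 28 and 119 cDNAs. Over a stretch as long as the window itself, the minus strand fell to 3 and 3 cDNAs beyond the 5′ end and to 5 and 8 beyond the 3′ end. On the plus strand the window was denser than the same length beyond its 5′ end by 1.36 times in replicate 1 (exact 95% interval 1.13 to 1.63) and 1.45 times in replicate 2 (1.31 to 1.61). Against the same length beyond its 3′ end the plus-strand ratios were 1.16 (0.971 to 1.38) and 1.33 (1.20 to 1.47), and the first of these intervals includes 1.

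Along Kcnq1ot1 the densest stretch was the 5′ end of its mm9 window. The letters printed above begin the GRCm38 reference transcript, and whether both 5′ ends coincide was not checked. The first 2 kb of the window (150480601 to 150482600) held 24 cDNAs in replicate 1 and 64 in replicate 2, or 14.7 and 14.2 CPM per kb. That was 4.20 times the density of the rest of the window in replicate 1 (exact 95% interval 2.64 to 6.40) and 3.62 times in replicate 2 (2.76 to 4.67). The next 2 kb fell back to 7 and 8 cDNAs. The plus strand held 11 and 40 cDNAs in the first 2 kb and 13 and 31 in the next, without such a drop. With bins of 1 kb the first bin had a mean of 20.9 CPM per kb, and with bins of 4 kb it had 8.75, so the excess lay close to the 5′ end. The stretch was singled out after its values were seen, and these intervals cover counting error only.

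A second dense part lay 52 to 56 kb from the 5′ end. Its 2 bins, 150428601 to 150430600 and 150426601 to 150428600, held 18 and 16 cDNAs in replicate 1 and 42 and 54 in replicate 2. The plus strand held 6 and 16 cDNAs at 52 to 54 kb, 3.68 and 3.55 CPM per kb against 4.03 and 4.62 over the whole window, and fewer at 54 to 56 kb, with 2 and 6. Toward the 3′ end coverage thinned out on the minus strand: the last 25% of the window held 12.7% of the cDNAs in replicate 1 and 9.94% in replicate 2, against 32.7% and 29.2% in the first 25%. The plus strand thinned out over part of this stretch too, with 3 and 3 cDNAs at 74 to 76 kb, where the minus strand held 1 and 3. At 82 to 84 kb it had risen again, to 11 and 42 cDNAs against 1 and 0 on the minus strand. The last 10 kb had 11 and 12 cDNAs on the minus strand and 32 and 89 on the plus strand. Between the replicates, r over the 43 bins was 0.84 and rho 0.61, as a description of neighbouring bins of 1 RNA. No bin was empty in both replicates.

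**Figure D3:**
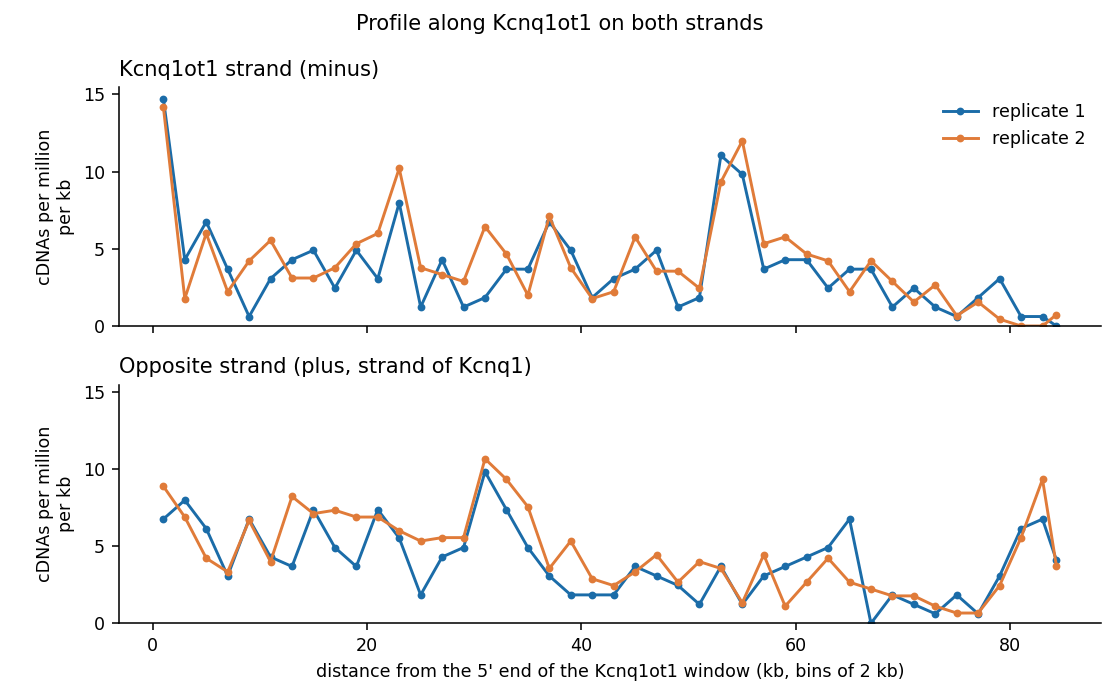
CPM per kb in bins of 2 kb along the Kcnq1ot1 window, from its 5′ end, in both replicates: its own strand above and the opposite strand, that of Kcnq1, below. On the Kcnq1ot1 strand both replicates peak in the first bin (14.7 and 14.2) and again at 52 to 56 kb. They thin out toward the 3′ end. The opposite strand has 6.75 and 8.87 in the first bin and 1.23 and 1.33 at 54 to 56 kb. It is also low at 74 to 76 kb (1.84 and 0.666) and rises again at 82 to 84 kb (6.75 and 9.32).

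On Igf2 the cDNAs lay toward the 3′ end. The first 25% of the window held 0 cDNAs in both replicates and in the merged track, and the last 25% held 15 of 25 in replicate 1 (60.0%) and 25 of 54 in replicate 2 (46.3%). The cDNA nearest to the 5′ end was 6.97 kb into the window in replicate 1 and 5.77 kb in replicate 2. The annotated last exon of the longest reference transcript, which carries the 3′ untranslated region, is 3284 nt long. By the rule for naming bins, the fullest bins of 500 nt were 149844801 to 149845300, with 2 and 8 cDNAs, 149838301 to 149838800, with 2 and 3, and 149836801 to 149837300, with 1 and 9. The bins therefore filled unevenly between the replicates, and the Pearson r over 33 bins was 0.22. The position with the most cDNAs, 149836868, had 3 in replicate 2 and 0 in replicate 1.

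H19 and Cdkn1c were too sparse for a profile. The H19 cDNAs were all on different nucleotides, 4 in replicate 1 and 11 in replicate 2, and of 30 bins of 100 nt only 149761901 to 149762000 was filled in both. They ran over most of the window, with 1 and 1 cDNAs in its first 25% and 2 and 4 in its last 25%. Of the 3 and 1 cDNAs of Cdkn1c, 1 of each replicate lay in the same bin, 150644301 to 150644400. The others of replicate 1 lay apart, in the bins 150646001 to 150646100 and 150644901 to 150645000.

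**Figure D4:**
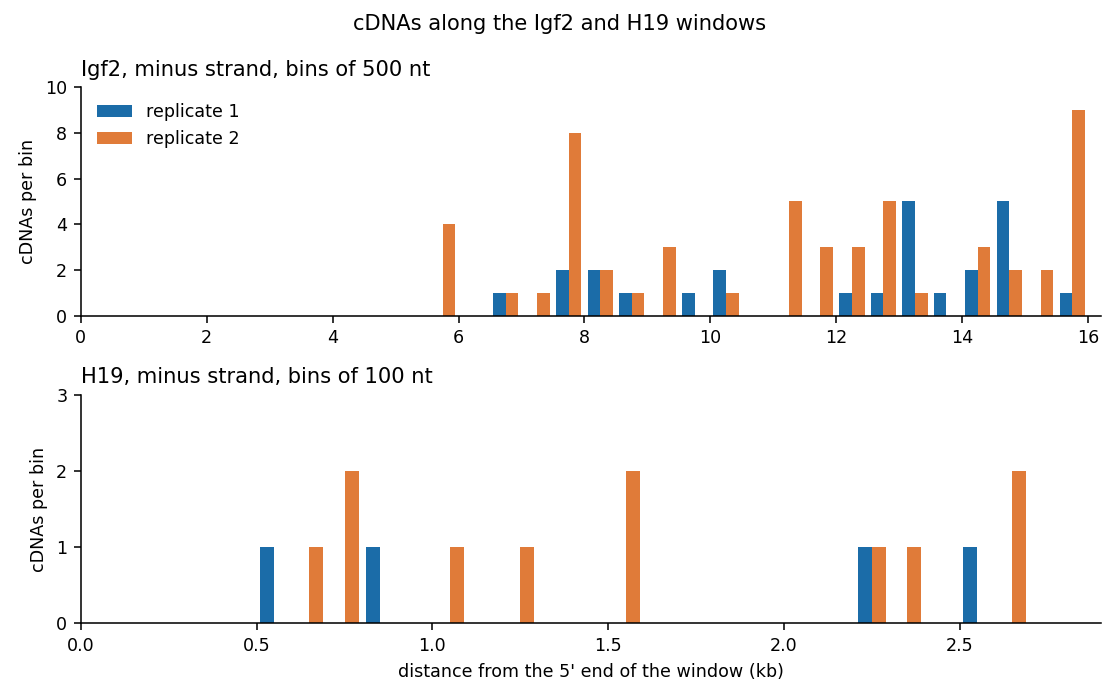
cDNAs per bin along the Igf2 window (bins of 500 nt, above) and the H19 window (bins of 100 nt, below), from the 5′ end, with bars for each replicate on a linear scale from 0. Igf2 is empty over its first 5.77 kb and fills toward its 3′ end, and no H19 bin holds more than 2 cDNAs.

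Single nucleotides hardly recurred. In Kcnq1ot1 4 of 253 replicate 1 positions were listed again in replicate 2, 1.58% (exact 95% binomial interval 0.432% to 4.00%), where replicate 2 covered 0.917% of the nucleotides. Within 5 nt the share was 22.1%, and 9.01% of the window's nucleotides lay that close to a replicate 2 position. In H19, Igf2 and Cdkn1c 0 of 4, 0 of 24 and 0 of 3 positions recurred. Most positions held a single cDNA: in Kcnq1ot1 7 positions of replicate 1 and 17 of replicate 2 held at least 2, and the highest held 4. The position ranked first by the lower replicate was 150482333, 0.267 kb from the 5′ end, with 1 and 2 cDNAs.

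No member differed detectably between the replicates. Of 13924 windows tested, the 4 members included, 13 (0.0934%) passed (exact binomial test, two-sided, given the totals, with p-values adjusted by Benjamini-Hochberg over all windows), and 0 of the 4 members did. Below an unadjusted p of 0.05 there were 775 of the 13924 windows and 0 of the 4 members, a number too small to tell the members from other windows. The log2 ratio of replicate 1 to replicate 2 was -0.15 for Kcnq1ot1 (exact 95% interval -0.35 to 0.06, adjusted p = 0.997), 0.36 for Igf2 (-0.39 to 1.06, adjusted p = 1) and 0.01 for H19 (-2.10 to 1.76, adjusted p = 1), by the exact binomial test. For Cdkn1c it was 3.05 (-0.59 to 8.77, adjusted p = 0.914, exact binomial test). The intervals leave room for large differences in H19 and Cdkn1c.

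The authors' merged track, a sum over 5 libraries of which 3 are not among the replicates, held 19 cDNAs in H19, 94 in Igf2, 1274 in Kcnq1ot1 and 7 in Cdkn1c. Taking off the replicates leaves 4, 15, 219 and 3 cDNAs of 1138453 for the other libraries together. Of the 4 members, 1 passed the test against the replicates together, where 27.9% of 21845 windows passed and 13.4% passed as lower in the other libraries, so a call there is common. That member was Kcnq1ot1, which was less densely covered in the other libraries, with 2.27 CPM per kb against 4.06 in the replicates together, a log2 ratio of -0.84 (exact 95% interval -1.05 to -0.63, adjusted p = 7.80e-15, exact binomial test). The plus strand of the same window moved alike, with 206 cDNAs and a log2 ratio of -1.06 (-1.28 to -0.85), and the minus strand held 51.5% of the cDNAs of the window (46.7% to 56.4%). Igf2 had a log2 ratio of -0.97 (-1.87 to -0.16) and missed the threshold (adjusted p = 0.0515, exact binomial test), and H19 and Cdkn1c had -0.48 and 1.02 (adjusted p = 0.895 and 0.577, exact binomial test). The other libraries carry library identifiers in the header that differ from the one both replicates share, and only their sum is used here, so library and cells cannot be told apart.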

How the data were processed

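SRSF3-GFP iCLIP of neonatal cardiomyocytes was analysed in 2 replicates, grouped by the titles in the labels. Per the file headers, the deposited tracks give a signed score per nucleotide of mm9 with annotation Ensembl 59: its absolute value counts cDNAs, unscaled, and negative scores are on the minus strand. Reads were mapped with Bowtie 0.10.1, per the submitters' processing notes. The treatment of duplicate cDNAs and of reads with several matches was not given in the sources used here, and either could change counts in repeats such as those of Kcnq1ot1. The merged track is the authors' sum over 5 libraries.

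cDNAs in each window were counted on each strand with 1-based coordinates and divided by the library total (Python 3.11.15, SciPy 1.17.1). Intervals are exact 95% Poisson, binomial (Clopper-Pearson) or conditional binomial intervals. They cover counting error only and treat each counted cDNA as an independent molecule. If copies made by PCR were counted, the intervals would be too narrow. The floor of a count of 0 is 3 cDNAs. Differences were tested with two-sided exact binomial tests over all 10 kb strand windows with at least 50 cDNAs plus the 4 members, at a 5% false discovery rate, and the procedure was tested on simulated counts. Bins were named by the highest value in the lower replicate, up to 3 per gene. GENCODE M21 and RefSeq are on GRCm38, so they gave names, lengths, letters and neighbourhood only, and no coordinate was converted. All 4 genes matched. Members, lists and windows were chosen with earlier results of these data known. The 25% sections, the 5′ 2 kb of Kcnq1ot1 and its flanks were chosen after the values were seen. The 6 hearts are not analysed here.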

Additional observations from a re-analysis of the deposited data

How the results depend on the processing

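Of the 167 recomputed values, 132 stayed within the replicate spread or on the same side of the threshold. Among these were changes of sign, in ratios to Cdkn1c, whose replicate spread is wide, and in the ratio of Igf2 to H19. No paired analysis was possible because only the iCLIP group has values here. Mean densities in CPM per kb (H19 1.69, Igf2 1.69, Kcnq1ot1 3.97, Cdkn1c 0.687) moved with the length used: per kb of filled 100 nt bins they were 4.45, 5.57, 6.62 and 6.87, and per kb of the longest reference transcript H19, Igf2 and Kcnq1ot1 had 2.14, 5.78 and 3.61. Per kb of filled bins Kcnq1ot1 to Cdkn1c reversed to -0.053 on the log2 scale, and per kb of reference transcript Kcnq1ot1 to Igf2 reversed to -0.68. Filled bins also turned the log2 ratios to Cdkn1c of Igf2, from 1.30 to -0.30, and of H19, from 1.30 to -0.63. The log2 ratio of Kcnq1ot1 to H19 was 0.57 and 0.75 on these scales, and that to Igf2 was 0.25 per kb of filled bins. A bin filled by 1 cDNA sets its own length, so filled bins level sparse genes. The merged track gave H19 1.56, Igf2 1.38 and Kcnq1ot1 3.58. Positions with at least 2 cDNAs, in window and total alike, gave Kcnq1ot1 2.05, Igf2 1.76, H19 0 and Cdkn1c 0, so Kcnq1ot1 and Igf2 came closer. The Igf2 value rests on 1 such position in replicate 1 and 3 in replicate 2, that of Kcnq1ot1 on 7 and 17. H19 alone moved beyond its small SD, to 1.76 with the reduced total, 1.80 with positions counted once, 1.40 without its highest position, 1.81 in the shortened and 1.25 in the extended window, and the log2 ratio of Kcnq1ot1 to H19 was 1.50 without the highest positions and 1.65 in extended windows. Leaving out a replicate gave log2 ratios of Kcnq1ot1 of 1.16 to 1.31 to H19, 0.99 to 1.50 to Igf2 and 1.62 to 4.82 to Cdkn1c. The 5′ end bin of Kcnq1ot1 (14.5 CPM per kb) had 20.9 in bins of 1 kb and 8.75 in bins of 4 kb. Recurrence in Kcnq1ot1 was 22.1% within 5 nt and 0% for its 7 positions with at least 2 cDNAs. Windows differing between replicates numbered 13, and 23 with positions counted once. With 4 and 11 cDNAs in H19 and 3 and 1 in Cdkn1c, depth limits every statement on these genes.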

Other observations

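The plus strand carried more cDNAs than the minus strand in the stretches on either side of Kcnq1ot1. Between Igf2 and Kcnq1ot1 it held 542 cDNAs in replicate 1 and 1461 in replicate 2, or 1.22 and 1.19 CPM per kb, against 13 and 53 on the minus strand. Between Kcnq1ot1 and Cdkn1c it held 288 and 829, or 2.19 and 2.28 CPM per kb, against 3 and 8. Between H19 and Igf2 both strands were nearly empty, with 1 and 6 cDNAs on the plus strand and 0 and 3 on the minus strand. In the 50 kb beyond Cdkn1c it held 0 and 8 against 7 and 13 on the minus strand, so the excess did not extend there.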
